A study of Mus musculus with 24 samples.

Results

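Collagen and laminin chain genes encode the α chains of collagens and the α, β and γ chains of laminins. They were taken from the deposited expression table by name, as every row whose symbol reads Col, a number, a and a number, or Lam, then a, b or c and a digit. The rule used no measured value. It found 33 genes among 16617, 25 collagen and 8 laminin genes, of 55 genes with such names in the GENCODE vM21 annotation. All 33 passed the filter on low values given below, and 26 passed the test in at least 1 of the 10 comparisons between 2 groups.

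The genes were followed in mouse embryonic stem cells of 4 lines, each in a naive and a formative state, with 3 samples per group in the labels and 24 in all. MLL3 and MLL4, the products of Kmt2c and Kmt2d, are enzymes that methylate histone H3 at lysine 4 of enhancers. The wild-type line and the line named MLL3CD_MLL4CD (called catalytic-dead here) were R1 cells, while MLL3KO_MLL4fl (floxed) and MLL3KO_MLL4KO (knockout) carried no MLL3 by their names, and the knockout line no MLL4 either. Naive cells were held in LIF2i medium, and formative cells were collected 63 h after it was withdrawn. Each genotype was 1 line, so the genotype and any other difference between lines cannot be told apart.

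Laminins and collagen IV build the basement membrane, the thin matrix sheet on which epithelia rest. A laminin is a trimer of an α, a β and a γ chain that polymerises at the cell surface, and collagen IV, made mainly of α1 and α2 chains, forms the network that stabilises the sheet. In the mouse embryo the epiblast forms from naive-like cells and becomes an epithelium resting on such a membrane, while parietal endoderm secretes large amounts of it. Fibrillar collagens such as types I, II and V form the fibres of connective tissue and cartilage and are typical of mesenchymal cells rather than of pluripotent cells.

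RNA was read as 3′ tags, which count transcripts near their polyadenylated end, and the authors deposited 1 averaged log2 value per gene and group. Whole counts of 23 libraries were recovered from these averages, with 4808564 to 15425959 counts per library. The naive wild-type column held 2 libraries. One library of 6919314 counts was averaged into both the formative knockout and the formative catalytic-dead column, and it was kept with the second, whose other libraries it resembled more. All 23 libraries resembled a library of their own group most. Libraries are called a, b and c by falling depth, and values are CPM, the count of a gene scaled to the same total in each library. Counts of abundant genes could not be recovered, so 28 of the 33 genes had library values in all groups and the others, among them Lamc1, Lamb1, Lama5 and Col18a1, had only averages in some. Formative knockout averages of such genes are given with the shared library removed, the formative catalytic-dead average standing in for it. Summed levels of 9 pluripotency markers were 2273 to 2610 CPM in the naive and 764 to 997 CPM in the formative groups, and those of 6 formative markers were 89.1 to 169 CPM and 1452 to 2382 CPM. Kmt2c stood at 16.2 to 23.4 CPM in the floxed and knockout groups and 35.4 to 67.4 CPM in the others. Kmt2d stood at 17.6 and 20.2 CPM in the knockout groups and 20.3 to 35.7 CPM in the others; the deleted parts are not given in the sources used here, and 3′ tags therefore check these labels only in part.

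Knockout cells had more collagen and laminin genes above than below the floxed line, chiefly in the formative state. In formative knockout cells 10 of 29 tested collagen and laminin genes were higher than in floxed cells (34.5%, against 10% of all tested genes) and 2 were lower (6.90%, against 6.2%). The higher genes included Col4a1, Col4a2, Col8a1, Col12a1, Col1a1, Col1a2, Col5a2, Col7a1 and Col11a1, and the 2 lower genes were Col2a1 and Col6a5. In naive knockout cells 6 of 29 were higher (20.7%, against 7.88%) and 5 lower (17.2%, against 9.47%). Col12a1 is among the higher genes in both states. It passed the filter on low values only through knockout libraries, so it entered these counts because it was high there. Col6a5, among the lower genes in both states, passed the filter only through formative wild-type and floxed libraries. It entered because it was high in those lines. The median log2 difference of the tested members was 0.01 in the formative and 0.10 in the naive state, beside 0.05 and -0.03 over all tested genes, so that the called genes moved and the middle of the family did not stand far from other genes. "Higher", "rose" and "fell" here mean that the p from limma, after Benjamini-Hochberg adjustment across the genes of that comparison, lay under 0.05, and differences are log2 differences ± SE with a prior count of 2, which understates changes of genes at low levels.

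Catalytic-dead cells were compared with wild-type cells in each state. In the naive state 3 of 31 were higher (9.68%, against 5.65% of all tested genes) and 2 lower (6.45%, against 4.38%). In the formative state 4 of 29 were higher (13.8%, against 4.26%) and 4 lower (13.8%, against 2.96%). The lower genes include Col6a5, which passed the filter on low values only through formative wild-type and floxed libraries. The floxed line, which differs from wild type by the loss of MLL3 and by line, had 2 of 29 members higher in the naive state (6.90%, against 1.91%) and 0 lower (against 3.16%). Formative floxed cells had 0 higher (against 3.76%) and 1 lower (3.45%, against 5.01%), near the background. Omitting 1 library changed these counts. The naive catalytic-dead total of 5 was 2 on omitting naive wild-type library a and 3 on omitting naive catalytic-dead library b. The formative total of 8 was 5, 4 and 5 on omitting formative wild-type library a, formative wild-type library c or formative catalytic-dead library a. The naive floxed total of 2 was 1 on omitting either naive wild-type library or naive floxed library a, and 0 on omitting naive floxed library c, and the formative floxed total of 1 was 2 on omitting formative wild-type library b or c or formative floxed library a.

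The transition from the naive to the formative state was tested within each line. In wild-type cells 7 of 29 members rose (24.1%, against 19.2% of all tested genes) and 3 fell (10.3%, against 12.4%), both near the background. In floxed cells 9 of 28 rose (32.1%, against 22%) and 4 fell (14.3%, against 10.9%). In knockout cells 9 of 28 rose (32.1%, against 21%) and 1 fell (3.57%, against 5.15%), and in catalytic-dead cells 6 of 29 rose (20.7%, against 18.1%) and 1 fell (3.45%, against 10.1%). Col8a2, Col6a2 and Col6a4 are among the risen genes of some lines. They passed the filter on low values only through formative libraries, so they entered these counts because they were high there. With median-ratio size factors, which shifted all genes of the knockout transition by -0.28 log2 and of the other 3 transitions by -0.09 to -0.16, the split was 6 risen and 2 fallen in knockout cells and 6 and 3 in catalytic-dead cells. Of the laminins tested, 1 rose and 2 fell in wild-type cells, while 0 rose and 2, 1 and 1 fell in floxed, knockout and catalytic-dead cells.

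Whether a transition differed between lines was tested directly. The knockout transition exceeded the floxed transition for 2 of 28 members, Col5a2 and Col8a1 (7.14%, against 5.06% of all tested genes), and fell short of it for 0 (against 3.22%). The catalytic-dead transition exceeded the wild-type transition for 0 of 29 (against 1.72%) and fell short of it for 2, Col4a1 and Col4a5 (6.90%, against 1.4%). These 2 were reduced to 0 or 1 on omitting any of 10 of the 11 libraries of the comparison, the exception being formative wild-type library c.

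**Figure D1:**
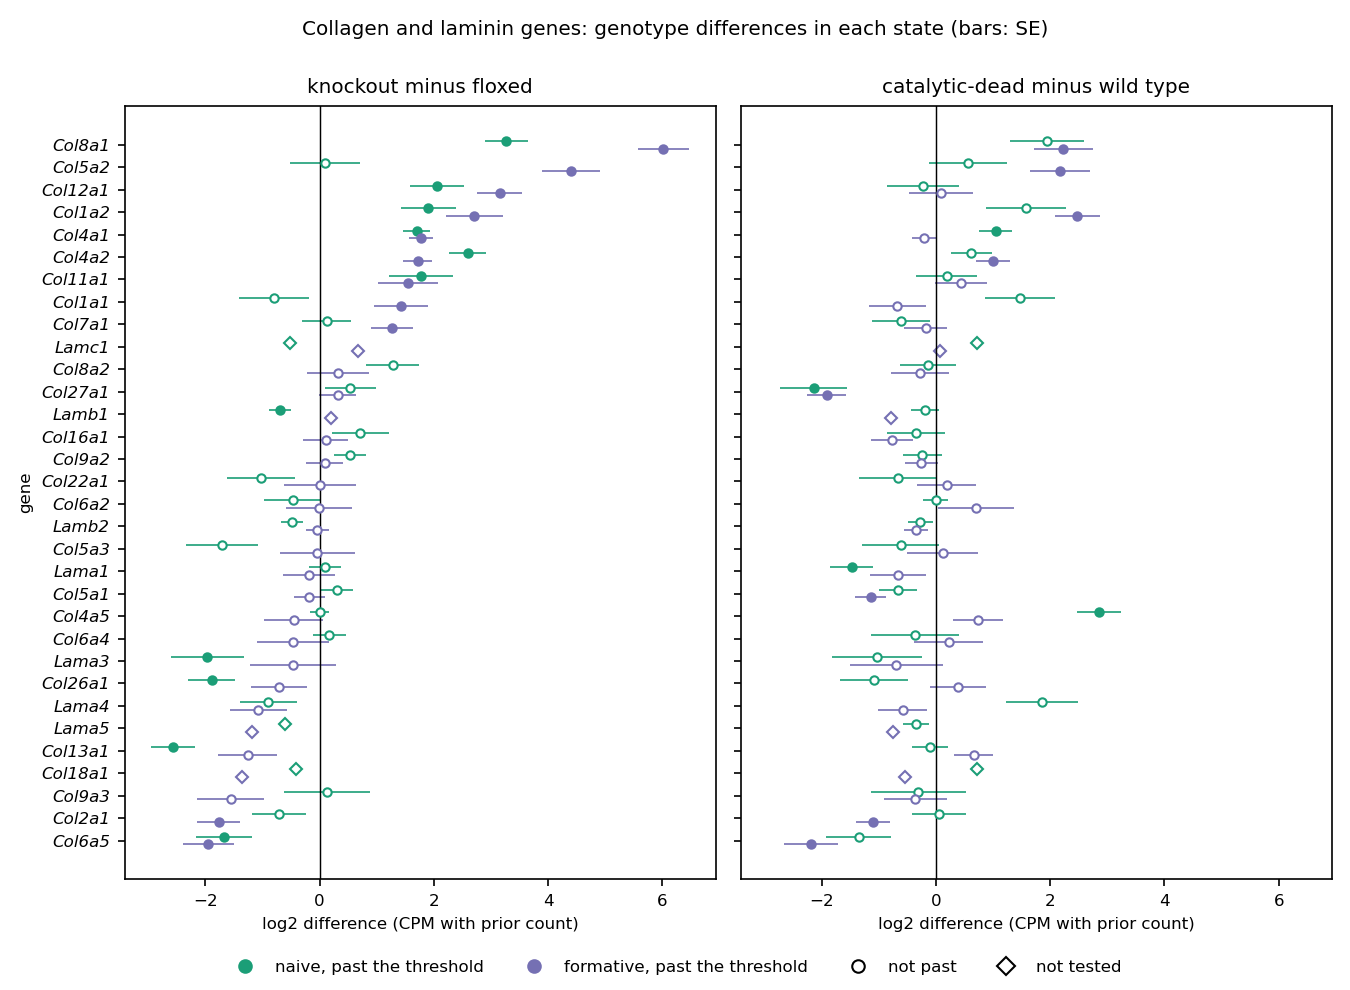
Log2 difference (x axis, CPM with a prior count) for 32 collagen and laminin genes (y axis, ordered by the formative knockout difference), knockout minus floxed on the left and catalytic-dead minus wild type on the right. Circles with bars are fitted differences ± SE, filled where past the threshold, and diamonds are differences of averages with no test; Col8a1 at 6.02 and Col5a2 at 4.40 stand farthest right among the formative knockout values.

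Collagen IV is the network-forming collagen of basement membranes, and Col4a1 and Col4a2 encode its most widespread chains. They lie head to head on chromosome 8 of GRCm38, Col4a1 on the minus strand from 11198423 to 11312826 and Col4a2 on the plus strand from 11312805 to 11449287, so that the annotated genes overlap by 22 bases at their starts. Their promoter windows, from 250 bases before to 50 bases after the RefSeq start (GRCm38.p6), overlap by 78 bases and are shown because both genes differed together. Capitals mark CCAAT and GGGCGG on either strand (ATTGG and CCGCCC on the other).
Col4a1 (chr8:11312777-11313076, minus strand): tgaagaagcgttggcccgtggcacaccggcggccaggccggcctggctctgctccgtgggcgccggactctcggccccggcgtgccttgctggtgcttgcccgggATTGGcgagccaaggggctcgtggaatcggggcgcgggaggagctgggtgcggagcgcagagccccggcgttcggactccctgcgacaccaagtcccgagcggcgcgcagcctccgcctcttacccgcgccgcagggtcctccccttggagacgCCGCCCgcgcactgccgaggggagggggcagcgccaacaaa
Col4a2 (chr8:11312555-11312854, plus strand): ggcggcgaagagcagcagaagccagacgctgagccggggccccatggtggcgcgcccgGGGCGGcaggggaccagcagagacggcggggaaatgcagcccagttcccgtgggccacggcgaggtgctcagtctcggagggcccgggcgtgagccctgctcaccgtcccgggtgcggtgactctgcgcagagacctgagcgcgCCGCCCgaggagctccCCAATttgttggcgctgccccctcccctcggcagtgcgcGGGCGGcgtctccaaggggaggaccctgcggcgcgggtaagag
CCAAT was found in both windows, once in each, and GGGCGG once in the first and 3 times in the second. The GGGCGG of the Col4a1 window lies in the shared 78 bases and is the same site as the last of the Col4a2 window. Among all 23 promoter windows of the 21 members with an entry, 11 held CCAAT (47.8%, against 37.4% of 32851 promoters) and 20 held GGGCGG (87.0%, against 35.7%). These matches are a description of the letters and show no site in use.

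Both genes were higher without MLL4 in either state. Col4a1 stood at 7.17, 6.06 and 8.01 CPM in naive floxed cells and 23.7, 18.6 and 28.6 CPM in naive knockout cells. In the formative state it stood at 10.1, 9.91 and 12.3 CPM in floxed and 31.2, 35.0 and 47.6 CPM in knockout cells. Every knockout library lay above every floxed one, with differences of 1.70 ± 0.24 (adjusted p = 6.37e-06) and 1.78 ± 0.21 (adjusted p = 3.74e-07). Col4a2 went from 2.52, 2.02 and 1.66 CPM in naive floxed to 13.7, 10.0 and 17.2 CPM in naive knockout cells, a difference of 2.59 ± 0.32 (adjusted p = 7.04e-07). Its formative values were 3.67, 6.44 and 3.36 CPM in floxed and 12.2, 16.6 and 15.4 CPM in knockout cells, a difference of 1.72 ± 0.25 (adjusted p = 1.18e-05). These 4 calls held under every alternative run. Tags at the end of Col4a1 overlap Gm15418 on the other strand, and the strand setting of the counting was not given in the sources used here; reads of the 2 cannot be told apart. In bulk RNA, fewer cells of a type and less RNA per cell cannot be told apart either.

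In the catalytic-dead line the pair differed from wild type by less. Naive Col4a1 stood at 14.5, 15.8 and 13.8 CPM beside 6.39 and 7.69 CPM in wild type, with no overlap (1.05 ± 0.28, adjusted p = 0.0169). The call was lost on omitting naive wild-type library a (0.92, adjusted p = 0.18) or naive catalytic-dead library b (0.99, adjusted p = 0.0527). Formative Col4a1 stood at 13.5, 10.6 and 14.6 CPM beside 19.1, 13.3 and 12.8 CPM in wild type, where the groups overlapped. Col4a2 was higher in formative catalytic-dead cells, at 6.66, 6.43 and 6.36 CPM against 3.75, 2.85 and 2.92 CPM (1.0 ± 0.29, adjusted p = 0.033). That call was lost in 8 of 12 alternatives, including the loss of any of the 6 libraries compared (adjusted p = 0.0606 to 0.105). In the naive state Col4a2 stood at 5.48, 4.56 and 5.09 CPM against 3.02 and 3.39 CPM and did not pass. Whether knockout and catalytic-dead effects differ was not tested.

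Across the transition Col4a1 rose in wild-type cells by 1.06 ± 0.27 (adjusted p = 0.00313), a call lost on omitting naive wild-type library a (0.93, adjusted p = 0.0728). It rose in knockout cells by 0.68 ± 0.19 (adjusted p = 0.00777), which was lost with median-ratio size factors (0.39, adjusted p = 0.148), with the shared library left in (0.34, adjusted p = 0.329), without naive knockout library b (0.52, adjusted p = 0.0695) and without formative knockout library c (0.50, adjusted p = 0.0735). Col4a2 rose in floxed cells by 1.01 ± 0.35 (adjusted p = 0.0253), which was lost in 5 of 12 alternatives, including on omitting naive floxed library b (1.0, adjusted p = 0.0689) or c (0.87, adjusted p = 0.0884) and without formative floxed library b (0.73, adjusted p = 0.138). The Col4a1 transition in catalytic-dead cells was smaller than in wild-type cells by -1.25 ± 0.36 (adjusted p = 0.0473). This was lost in 10 of 17 alternatives, 8 of them omissions of 1 library, either of naive wild type, formative wild type a, any of naive catalytic-dead, or formative catalytic-dead a or b (adjusted p = 0.0697 to 0.204). Over the 8 group averages the pair had a Pearson r of 0.894; these averages come from the same libraries for both genes. The genes whose 8 averages were most like those of Col4a1, among 10357 genes, were Dnal4 (r = 0.993), Rbm43 (0.990), Rab21 (0.990), Chst14 (0.971) and Arl2bp (0.968).

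Col4a5, on the X chromosome from 141475385 to 141689234, encodes the α5 chain of basement membranes such as that of the glomerulus. It had 0 counts in all naive libraries of the wild-type, floxed and knockout lines, where 3 counts over the group would be 0.130, 0.108 and 0.0863 CPM. In the formative state it stood at 1.01, 1.57 and 0.664 CPM in wild-type, 0.916, 1.78 and 0.560 CPM in floxed and 1.1, 0.285 and 0.832 CPM in knockout cells. It was thus higher in the formative state of these lines (adjusted p = 2.36e-06, 1.2e-06 and 0.000333), calls that held under every alternative run. Its pooled formative level was 8.52, 10.1 and 9.04 times the level of 3 counts over the naive group. In catalytic-dead cells it was present in both states, at 1.23, 0.913 and 1.80 CPM in naive and 2.36, 1.23 and 2.17 CPM in formative cells. Naive catalytic-dead cells had more than naive wild-type cells (adjusted p = 1.53e-05, held under every alternative run). Their pooled level was 9.97 times that of 3 counts over the naive wild-type group. Its transition was smaller in catalytic-dead than in wild-type cells by -2.11 ± 0.58 (adjusted p = 0.0408). That difference was lost in 12 of 16 alternatives, 9 of them omissions of 1 library, either of naive wild type, formative wild type a or b, naive catalytic-dead a or c, or any of formative catalytic-dead (adjusted p = 0.0517 to 0.137).

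Col18a1 and Col7a1 belong to the same matrix layer. Col18a1, whose C-terminal part gives endostatin, averaged 143 CPM in formative floxed and 56.0 CPM in formative knockout cells, a difference of averages of -1.35 that was not tested. As deposited, with the shared library left in, Col18a1 averaged 71.4 CPM in formative knockout cells. In wild-type cells its average went from 53.8 and 62.3 CPM in the naive libraries to 216 CPM in the formative state, a difference of 1.89. The untested transitions of the floxed, knockout and catalytic-dead lines were 1.08, 0.13 and 0.62. Its 3′ end overlaps Slc19a1 on the other strand. Col7a1, the anchoring fibril collagen, stood at 4.51, 4.43 and 3.54 CPM in formative knockout and 1.15, 1.44 and 2.43 CPM in formative floxed cells (1.27 ± 0.37, adjusted p = 0.0178). The call was lost without formative floxed library a (1.06, adjusted p = 0.091) or b (1.2, adjusted p = 0.0543) and without formative knockout library a (1.21, adjusted p = 0.0717) or b (1.22, adjusted p = 0.0529). Col7a1 also rose in the knockout transition (1.26 ± 0.37, adjusted p = 0.0116), but not with median-ratio size factors (1.0, adjusted p = 0.0567) or without formative knockout library a (1.2, adjusted p = 0.0507).

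**Figure D2:**
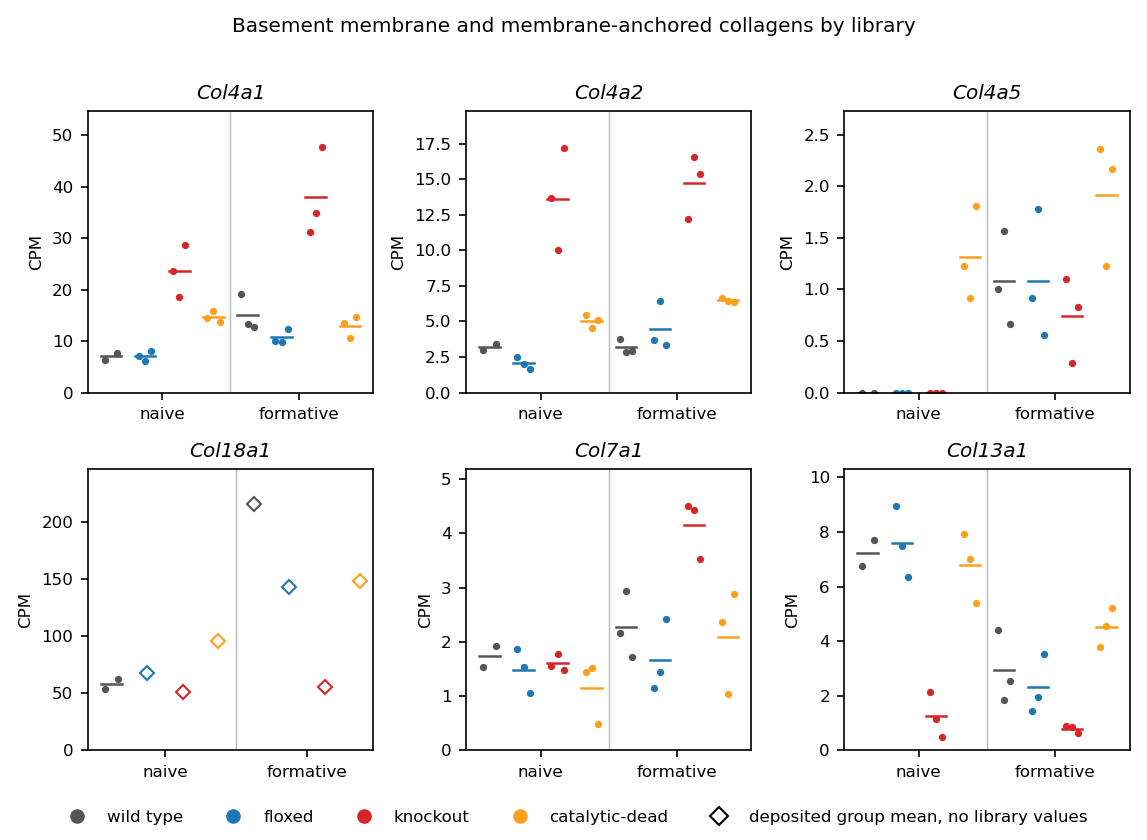
CPM (y axis, from 0) of 6 collagen genes in naive and formative cells (x axis), 1 point per library, coloured by line, with a bar at the mean; open diamonds are averages of groups without library values, for the formative knockout after removal of the shared library. The red knockout points of Col4a1 and Col4a2 lie above the blue floxed points in both states, and Col4a5 lies at 0 in 3 naive groups.

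Laminin α chains carry the cell-binding end of the trimer. Lama1, the α1 chain of early embryonic laminin, fell in the transition of wild-type (-2.11 ± 0.37, adjusted p = 5.8e-05), floxed (-1.44 ± 0.35, adjusted p = 0.00187) and knockout cells (-1.72 ± 0.40, adjusted p = 0.00168), in all alternatives run. It stood at 13.5 and 7.13 CPM in naive and 2.09, 4.61 and 0.930 CPM in formative wild-type cells. Floxed cells had 7.83, 8.75 and 8.16 CPM before and 2.21, 3.39 and 3.27 CPM after, and knockout cells 9.92, 10.3 and 6.81 CPM before and 2.0, 3.28 and 2.5 CPM after. Naive catalytic-dead cells held less, 4.47, 3.80 and 2.30 CPM, than naive wild-type cells (-1.47 ± 0.38, adjusted p = 0.0117). This call was lost on omitting naive wild-type library a (-1.02, adjusted p = 0.229) or naive catalytic-dead library c (-1.21, adjusted p = 0.0732) and in a fit of those 2 groups alone (adjusted p = 0.0835). The formative catalytic-dead values were 1.65, 1.04 and 1.16 CPM, a transition of -1.30 ± 0.50 that did not pass (adjusted p = 0.0513) but did in 5 of 12 alternatives.

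Lama5, the α5 chain of most epithelial basement membranes, averaged 55.9 CPM in formative wild-type, 44.5 CPM in formative floxed, 19.6 CPM in formative knockout and 33.2 CPM in formative catalytic-dead cells. As deposited, with the shared library left in, the formative knockout average was 22.3 CPM. The differences of averages, with no test, were -1.19 for knockout against floxed and -0.75 for catalytic-dead against wild type. Naive values were 51.8 and 42.5 CPM in wild-type, 41.2 CPM on average in floxed, 26.0, 32.6 and 23.1 CPM in knockout and 46.3, 33.2 and 32.0 CPM in catalytic-dead cells. The naive knockout libraries lay below the naive floxed average, by -0.60 as a difference of averages, and no transition average moved by more than 0.47 (the knockout, -0.47).

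Lama4, an α chain of endothelial and mesenchymal laminins, rose in the wild-type transition from 0.281 and 0.113 CPM to 1.44, 2.45 and 2.79 CPM (2.58 ± 0.57, adjusted p = 0.000746). The other transitions were not past the threshold, at 0.08 ± 0.42 in floxed, -0.10 ± 0.56 in knockout and 0.15 ± 0.50 in catalytic-dead cells (adjusted p = 0.907, 0.926 and 0.859). The catalytic-dead transition differed from that of wild type by -2.43 ± 0.76, which did not pass (adjusted p = 0.0777, and 0.045 without weights). Lama4 stood at 1.30, 3.47 and 1.03 CPM in formative floxed, 0.648, 1.06 and 0.619 CPM in naive knockout and 0.902, 0.856 and 0.416 CPM in formative knockout cells. Catalytic-dead cells had 1.12, 1.22 and 1.31 CPM in the naive and 0.859, 1.70 and 1.73 CPM in the formative state. It was higher in naive floxed cells, at 1.40, 1.44 and 1.96 CPM, than in naive wild type (2.19 ± 0.59, adjusted p = 0.0246). The latter call was lost without naive wild-type library b (1.88, adjusted p = 0.248), without naive floxed library c (2.05, adjusted p = 0.0686), in a fit of those 2 groups alone (adjusted p = 0.15) and with a prior count of 0.5 (2.81, adjusted p = 0.0911). Lama3, an α chain of skin laminin, fell in the floxed transition (-1.68 ± 0.62, adjusted p = 0.0377) and was lower in naive knockout than naive floxed cells (-1.96 ± 0.65, adjusted p = 0.0337). Its libraries overlapped in both comparisons, at 3.63, 1.35 and 2.11 CPM in naive floxed and 1.43, 0 and 0.495 CPM in naive knockout cells. The calls were lost in 5 and 6 of 11 alternatives, including without naive floxed library a (adjusted p = 0.18 and 0.167) or c (0.0598 and 0.0555), without formative floxed library c (0.36) and without naive knockout library b (0.272) or c (0.0637).

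Lamb1 and Lamb2 encode β chains, of which β1 is the common one of embryonic laminins. Lamb1, on chromosome 12, stood at 15.4 and 12.2 CPM in naive wild-type libraries and averaged 91.6 CPM in formative wild-type cells, a difference of averages of 2.72. The transitions of the other lines were 1.33 in floxed, 2.23 in knockout and 2.12 in catalytic-dead cells, and none was tested because formative counts were not recovered. In the naive state Lamb1 stood at 23.2, 23.6 and 23.4 CPM in floxed and 12.8, 17.7 and 13.1 CPM in knockout cells (-0.69 ± 0.19, adjusted p = 0.0126). That call was lost without naive knockout library a (-0.61, adjusted p = 0.0707) or c (-0.62, adjusted p = 0.0575). The floxed values also lay above naive wild type (0.76 ± 0.21, adjusted p = 0.0388), which was lost in 7 of 11 alternatives, including the loss of any of the 5 libraries compared (adjusted p = 0.0547 to 0.219). Catalytic-dead cells had 12.3, 12.2 and 11.5 CPM in the naive state, which overlapped wild type. Lamb2, the β2 chain of the synapse and glomerulus, ran from 8.44 CPM to 18.5 CPM over all libraries and passed in no comparison between 2 groups.

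Lamc1, the γ1 chain shared by most laminins, was 67.3 and 68.1 CPM in naive wild-type libraries and otherwise known from averages. It averaged 35.6 CPM in formative wild-type, 84.3 and 39.8 CPM in naive and formative floxed, and 111 and 37.3 CPM in naive and formative catalytic-dead cells. In knockout cells the averages were 59.0 CPM and 63.7 CPM, the second being 55.7 CPM as deposited, with the shared library left in. The differences of averages between states were -0.93, -1.08, -1.58 and, in knockout cells, 0.11, with no test.

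**Figure D3:**
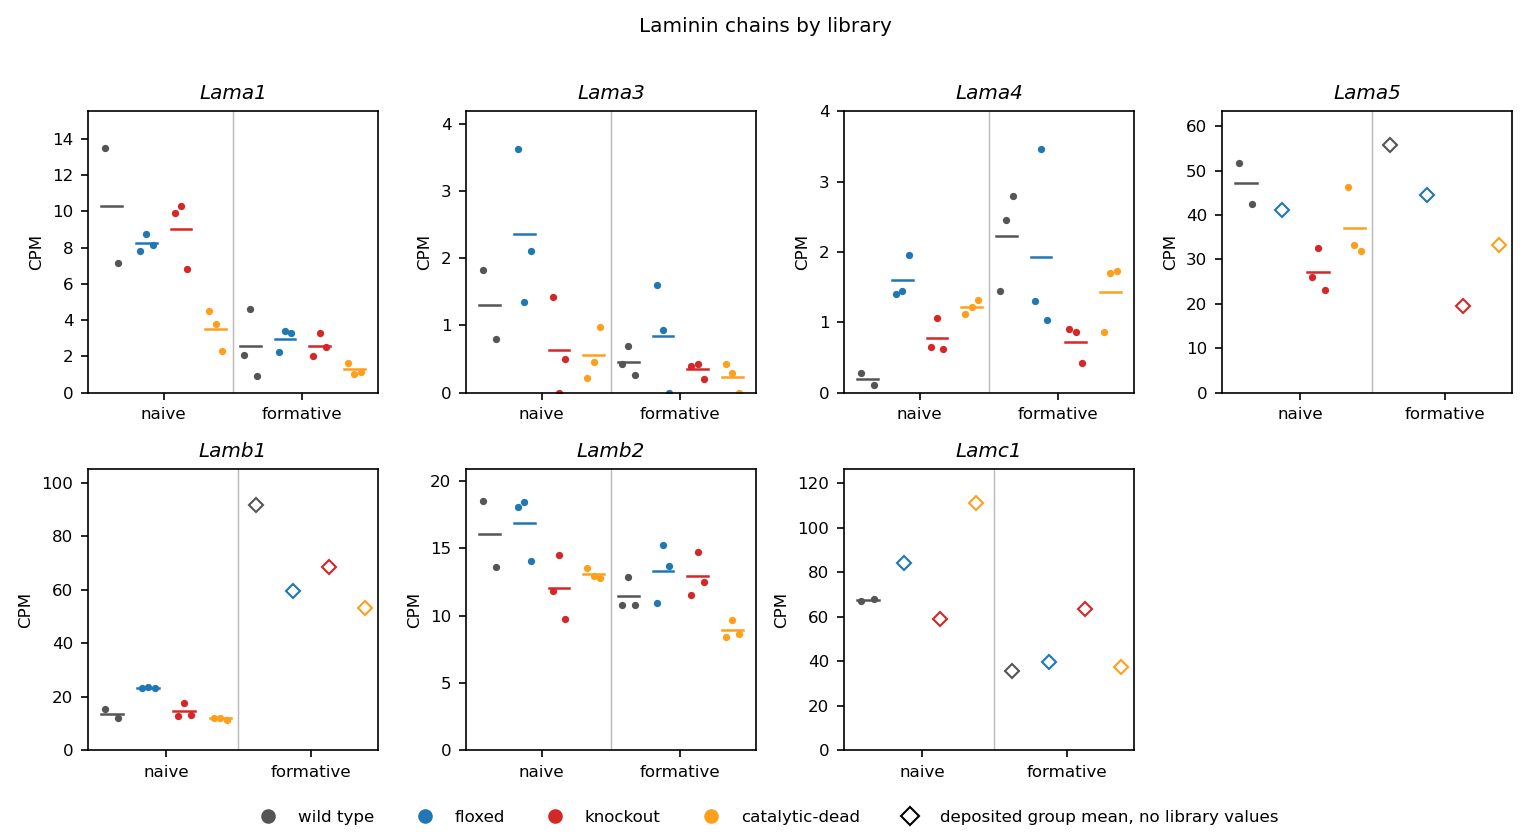
CPM (y axis, from 0) of 7 laminin genes in naive and formative cells (x axis), 1 point per library with a bar at the mean and open diamonds for averages of groups without library values, as in the collagen plot. Lama1 is lower and Lamb1 is higher on the formative side of each panel, and naive catalytic-dead Lama1 lies at 2.30 to 4.47 CPM.

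Fibrillar collagens were present at low levels. Col1a2, the α2 chain of type I collagen, passed in 7 of the 10 comparisons between 2 groups. It stood at 0.140 and 0.113 CPM in naive wild-type, 0, 0.0961 and 0 CPM in naive floxed, 1.56, 0.444 and 0.371 CPM in naive knockout and 0.671, 0.609 and 1.15 CPM in naive catalytic-dead cells. In the formative state it stood at 0.936, 1.96 and 2.92 CPM in wild-type, 1.30, 0.677 and 0.467 CPM in floxed, 7.02, 4.28 and 7.49 CPM in knockout and 10.2, 7.57 and 16.0 CPM in catalytic-dead cells. Knockout and catalytic-dead libraries thus lay above their controls without overlap in the formative state. The formative differences were 2.71 ± 0.50 for knockout against floxed (adjusted p = 0.000252) and 2.47 ± 0.39 for catalytic-dead against wild type (adjusted p = 0.000139). It rose in the transition of all 4 lines, by 2.58 ± 0.62 in wild-type (adjusted p = 0.00167), 2.05 ± 0.49 in floxed (0.00151), 2.86 ± 0.49 in knockout (4.52e-05) and 3.47 ± 0.52 in catalytic-dead cells (7.76e-06). The naive knockout difference of 1.90 ± 0.48 (adjusted p = 0.00495) was lost without naive knockout library a (1.39, adjusted p = 0.168). Of fibroblast markers, 5 of 7 tested rose and 1 fell in the wild-type transition (against 19.2% and 12.4% of all tested genes). In the floxed, knockout and catalytic-dead transitions 5 of 6, 3 of 5 and 3 of 6 rose (against 22%, 21% and 18.1%) and 0 fell. Dcn, a collagen-binding proteoglycan, rose by 2.66 ± 0.54 in wild-type (adjusted p = 0.000305), 5.33 ± 0.28 in floxed (3.61e-14), 1.82 ± 0.53 in knockout (0.0105) and 4.48 ± 0.43 in catalytic-dead cells (6.2e-09). The summed level of the 8 markers went from 130 to 85.5 CPM in wild-type, from 54.8 to 131 CPM in floxed, from 194 to 1094 CPM in knockout and from 90.2 to 167 CPM in catalytic-dead cells. Their part in the rise of Col1a2 and other fibrillar collagens was not tested.

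Col1a1, its α1 partner, did not follow it throughout, with a Pearson r of 0.510 between the 8 averages. In formative knockout cells it stood at 3.21, 3.28 and 3.74 CPM against 0.458, 2.37 and 1.21 CPM in floxed cells (1.43 ± 0.47, adjusted p = 0.0344). That call was lost in 8 of 13 alternatives, including without formative floxed library a (0.92, adjusted p = 0.216) or c (1.47, adjusted p = 0.0672), without any of the 3 formative knockout libraries (adjusted p = 0.0679 to 0.0806) and with the shared library left in (0.94, adjusted p = 0.286). It rose in the knockout transition from 0.519, 0.799 and 0.248 CPM (2.39 ± 0.55, adjusted p = 0.00147), under every alternative run. In formative catalytic-dead cells, where Col1a2 was high, Col1a1 stood at 1.5, 1.04 and 0.723 CPM beside 1.94, 2.75 and 1.06 CPM in wild type and did not pass.

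Col5a2, a chain of the type V collagen that nucleates collagen fibres, showed the clearest difference between transitions. Formative knockout cells had 7.02, 7.42 and 7.49 CPM, and the other groups of the comparison were near 0: 0, 0.0847 and 0.560 CPM in formative floxed, 0.972, 0 and 0 CPM in naive knockout and 0, 0.0961 and 0.453 CPM in naive floxed cells. The formative knockout difference was 4.40 ± 0.51 (adjusted p = 3.5e-07), the knockout transition 4.36 ± 0.53 (adjusted p = 3.04e-07), and the difference between transitions 4.30 ± 0.80 (adjusted p = 0.000693). All 3 held under every alternative run. Formative catalytic-dead cells had 3.94, 3.69 and 3.18 CPM against 0.576, 0.294 and 1.33 CPM in wild type (2.17 ± 0.52, adjusted p = 0.00825), a call lost on omitting formative wild-type library b (1.79, adjusted p = 0.0629). The catalytic-dead transition of Col5a2 (1.41 ± 0.50, adjusted p = 0.0336) was lost in 7 of 12 alternatives, including without any of the 3 naive or without formative library a or b (adjusted p = 0.0565 to 0.13).

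Col5a1 and Col5a3 encode other type V chains. Col5a1 stood at 3.44, 4.16 and 2.75 CPM in formative catalytic-dead against 7.56, 8.14 and 7.57 CPM in formative wild-type cells (-1.14 ± 0.27, adjusted p = 0.00621), under every alternative run. In the knockout comparisons Col5a1 did not pass, at 4.81, 6.0 and 3.95 CPM in formative knockout and 4.20, 7.37 and 5.41 CPM in formative floxed cells. Col5a3 passed in no comparison between 2 groups and ran from 0 to 2.14 CPM.

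Col2a1, the type II collagen chain of cartilage, was lower in formative knockout and formative catalytic-dead cells than in their controls. It rose in the floxed transition from 1.68, 1.83 and 1.51 CPM to 7.33, 8.64 and 5.32 CPM (1.94 ± 0.37, adjusted p = 0.00013). In formative knockout cells it stood at 1.6, 2.57 and 1.66 CPM (-1.76 ± 0.38 against floxed, adjusted p = 0.00137). Both calls held under every alternative run. In formative catalytic-dead cells it stood at 3.36, 3.69 and 2.60 CPM against 6.55, 6.87 and 7.84 CPM in wild type (-1.1 ± 0.30, adjusted p = 0.0211). That call was lost without weights (adjusted p = 0.105), without formative wild-type library c (-1.03, adjusted p = 0.0602) and without formative catalytic-dead library a (-1.14, adjusted p = 0.0735) or c (-0.96, adjusted p = 0.0908). It rose in the wild-type transition (1.76 ± 0.39, adjusted p = 0.000824), but not on omitting naive wild-type library a (1.06, adjusted p = 0.0993).

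Col11a1, which joins type II collagen in cartilage fibrils, was higher in knockout than floxed cells, at 4.71, 2.43 and 3.74 CPM against 1.45, 1.1 and 0.746 CPM in the formative state (1.54 ± 0.52, adjusted p = 0.0417). In the naive state it stood at 2.53, 4.35 and 1.49 CPM against 1.96, 0.481 and 0.151 CPM (1.77 ± 0.56, adjusted p = 0.0245), with overlap. Wild-type libraries ran from 1.24 to 3.37 CPM in the naive and from 1.94 to 2.45 CPM in the formative state. They overlapped the knockout libraries in both states, and floxed cells averaged less than wild type. The calls were lost in 7 of 13 and 5 of 12 alternatives. Among these were the omission of any formative floxed library or of formative knockout library a or c (adjusted p = 0.0765 to 0.18), and, for the naive call, of floxed library b or c and of knockout library a or b (adjusted p = 0.0523 to 0.19). The shared library left in also ended the formative call (1.48, adjusted p = 0.0606).

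Col27a1, a fibrillar collagen of developing cartilage, rose in all 4 transitions, from 1.90 and 2.49 CPM to 8.86, 10.8 and 7.97 CPM in wild-type cells (1.97 ± 0.39, adjusted p = 0.000243). The floxed rise of 1.36 ± 0.41 (adjusted p = 0.0107) was lost where naive floxed library b was left out (0.98, adjusted p = 0.0947), and the catalytic-dead rise of 2.20 ± 0.55 (adjusted p = 0.00278) without naive catalytic-dead library b (1.5, adjusted p = 0.0619). The knockout rise of 1.14 ± 0.37 (adjusted p = 0.0238) was lost in 7 of 13 alternatives, including without naive knockout library a (1.04, adjusted p = 0.0996) or b (1.2, adjusted p = 0.0515) and formative knockout library a (0.96, adjusted p = 0.135) or c (1.09, adjusted p = 0.0539). Formative catalytic-dead cells reached 1.65, 2.74 and 2.60 CPM, below all 3 wild-type libraries (-1.91 ± 0.34, adjusted p = 0.000542). Their naive values of 0.894, 0 and 0.492 CPM were also below wild type (-2.14 ± 0.58, adjusted p = 0.017), a call that ended on omitting naive wild-type library a (adjusted p = 0.0559) or b (0.0762), without naive catalytic-dead library b (0.16) and in a fit of those 2 groups alone (0.1). Formative floxed cells, at 5.04, 4.66 and 2.80 CPM, were below wild type (-1.14 ± 0.28, adjusted p = 0.00832), except without formative floxed library c (-0.89, adjusted p = 0.0677) and without weights (adjusted p = 0.146).

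**Figure D4:**
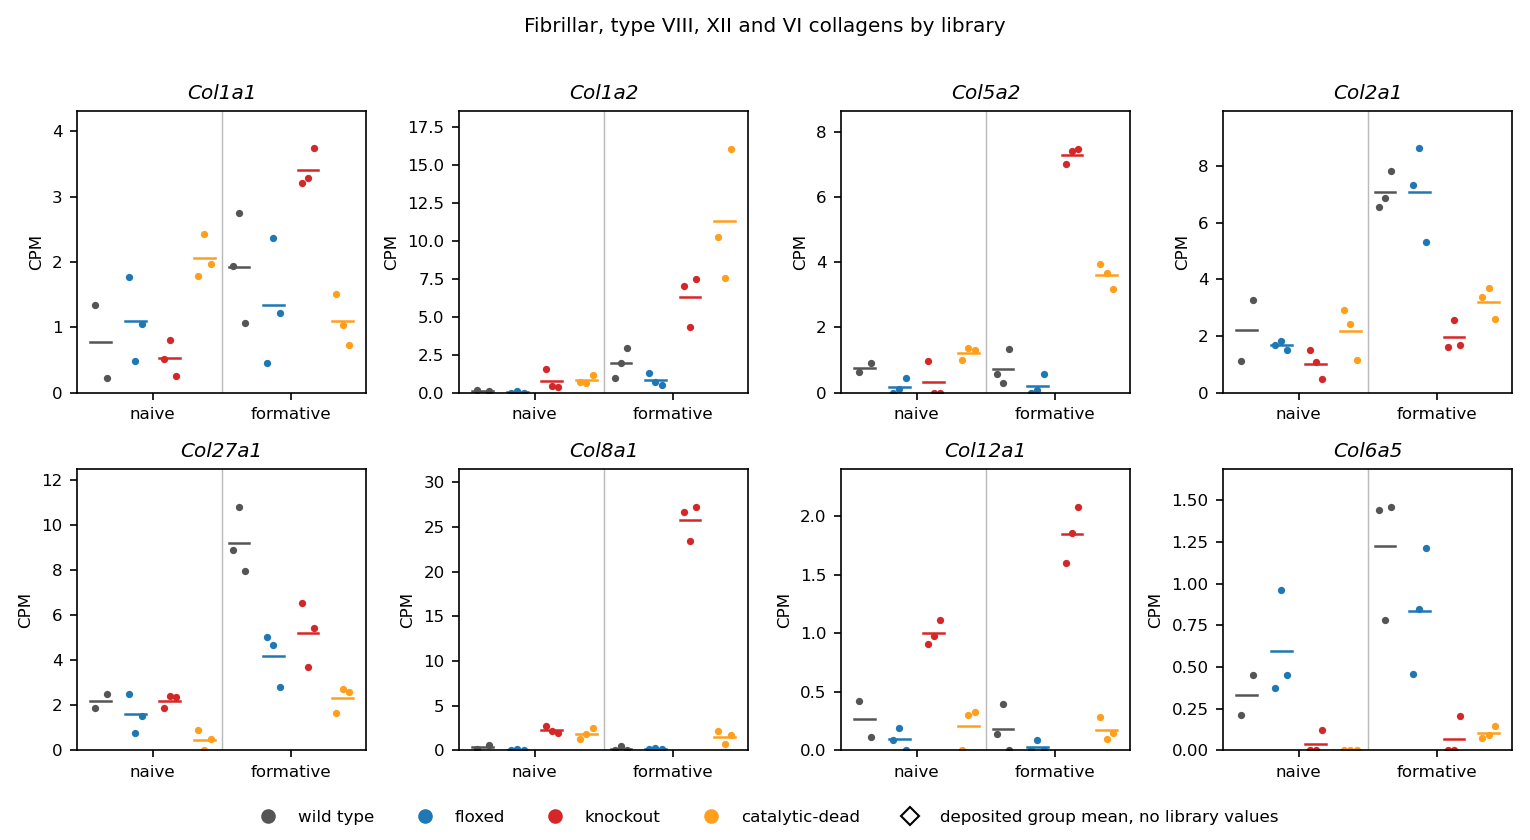
CPM (y axis, from 0) of 8 fibrillar and other collagen genes in naive and formative cells (x axis), 1 point per library, coloured by line, with a bar at the mean. Formative knockout libraries stand apart for Col8a1 (23.4 to 27.2 CPM) and Col5a2 (7.02 to 7.49 CPM), and formative catalytic-dead libraries are highest for Col1a2.

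Type VIII collagen is a short-chain network collagen of vessel walls and the cornea. Col8a1, on chromosome 16 from 57624258 to 57754737, had the largest difference of any member. It stood at 0, 0.192 and 0 CPM in naive floxed and 0.153, 0.254 and 0.187 CPM in formative floxed cells. Naive knockout cells had 2.72, 2.13 and 1.98 CPM and formative knockout cells 26.7, 23.4 and 27.2 CPM, without overlap in either state. The differences were 3.27 ± 0.37 (adjusted p = 2.62e-07) and 6.02 ± 0.45 (adjusted p = 9.94e-11), and the knockout transition 3.40 ± 0.30 (adjusted p = 1.79e-09), under every alternative run. The knockout transition exceeded the floxed one by 2.75 ± 0.58 (adjusted p = 0.00248), but not with a prior count of 0.5 (1.97, adjusted p = 0.362) or with the shared library left in (1.81, adjusted p = 0.547).

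Catalytic-dead cells had 1.23, 1.83 and 2.46 CPM of Col8a1 in the naive state, beside 0.140 and 0.566 CPM in wild type, which did not pass. Formative catalytic-dead cells had 2.22, 0.662 and 1.73 CPM against 0.0720, 0.491 and 0 CPM (2.23 ± 0.52, adjusted p = 0.0066). The formative call was lost without formative wild-type library a (2.08, adjusted p = 0.0529) or c (1.86, adjusted p = 0.0749) and without formative catalytic-dead library a (1.93, adjusted p = 0.0661). Col8a2, the second chain of this collagen, did not differ past the threshold between genotypes. It rose in the wild-type (1.93 ± 0.55, adjusted p = 0.00734), floxed (1.97 ± 0.42, adjusted p = 0.000498) and catalytic-dead transitions (1.79 ± 0.44, adjusted p = 0.00253), from at most 0.164 CPM to 0.339 to 1.30 CPM; the wild-type call was lost without naive wild-type library b (1.87, adjusted p = 0.0707). Col8a2 passed the filter on low values only through formative libraries, so it was tested because it was high there.

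Col12a1, a fibril-associated collagen of tendon and other dense tissue, was higher in knockout cells in both states. It passed the filter on low values only through knockout libraries, so it was tested because it was high there. It stood at 0.908, 0.976 and 1.11 CPM in naive knockout against 0.0932, 0.192 and 0 CPM in floxed cells (2.05 ± 0.47, adjusted p = 0.00191). Formative values were 1.6, 1.86 and 2.08 CPM against 0, 0.0847 and 0 CPM (3.15 ± 0.40, adjusted p = 1.24e-06). Both calls held under every alternative run, while the catalytic-dead values of 0 to 0.328 CPM overlapped the wild-type values of 0 to 0.421 CPM. Col9a3, a fibril-associated chain of cartilage, rose in the floxed transition from 0.466, 0 and 0.604 CPM to 2.67, 1.44 and 4.39 CPM (2.54 ± 0.61, adjusted p = 0.00156); its 3′ end overlaps Tcfl5 on the other strand. Col16a1 rose in the floxed transition from 0.745, 1.63 and 1.21 CPM to 3.21, 3.22 and 3.08 CPM (1.32 ± 0.48, adjusted p = 0.0329), a call lost in 7 of 12 alternatives, including the omission of any of the 6 libraries (adjusted p = 0.0501 to 0.14).

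Col13a1, a collagen anchored in the plasma membrane, was lower in naive knockout cells, at 2.14, 1.15 and 0.495 CPM, than in naive floxed cells, at 8.94, 7.50 and 6.34 CPM (-2.56 ± 0.38, adjusted p = 1.17e-05). It fell in the wild-type transition (-1.32 ± 0.34, adjusted p = 0.00295) and in the floxed transition to 1.45, 1.95 and 3.55 CPM (-1.70 ± 0.33, adjusted p = 0.000201). These 3 calls held under every alternative run. Formative knockout cells had 0.902, 0.856 and 0.624 CPM, below every floxed library but not past the threshold. Col26a1 was also lower in naive knockout, at 0.778, 2.22 and 0.990 CPM, than in naive floxed cells, at 6.33, 3.94 and 5.14 CPM (-1.89 ± 0.42, adjusted p = 0.0015). Naive wild-type libraries lay at 1.40 to 2.04 CPM, within the range of the knockout libraries and below every floxed one. It fell in the floxed transition (-1.14 ± 0.36, adjusted p = 0.0155), except without naive floxed library a (-0.99, adjusted p = 0.0754), without formative floxed library b (-0.88, adjusted p = 0.0924) and without weights (adjusted p = 0.0797).

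Type VI collagen chains form beaded microfibrils around cells, and those measured lay near the detection limit. Col6a5 stood at 1.44, 0.785 and 1.46 CPM in formative wild-type and 0.0716, 0.0946 and 0.145 CPM in formative catalytic-dead cells (-2.18 ± 0.47, adjusted p = 0.00313). Formative floxed cells had 0.458, 0.847 and 1.21 CPM and formative knockout cells 0, 0 and 0.208 CPM (-1.95 ± 0.44, adjusted p = 0.00245). Both calls held under every alternative run that tested the gene. Col6a5 passed the filter on low values only through formative wild-type and formative floxed libraries, so it was tested because it was high in these controls. The naive knockout call (-1.67 ± 0.49, adjusted p = 0.0152) was lost on omitting naive floxed library b (-1.36, adjusted p = 0.145) or naive knockout library a (adjusted p = 0.0516) or b (0.0513) and in a fit of those 2 groups alone (0.0611). Col6a4, its neighbour 28810 bases away in the same orientation, rose in the catalytic-dead transition from 0, 0 and 0.492 CPM to 1.15, 1.04 and 1.88 CPM (2.30 ± 0.56, adjusted p = 0.00247). Col6a4 passed the filter on low values only through formative libraries, so it was tested because it was high there. The 8 averages of these neighbours had a Pearson r of 0.312.

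Col6a2 passed the filter on low values only through formative libraries, so its transitions were tested because it was high there. It rose in the knockout transition from 0, 0 and 0.124 CPM to 0.902, 1.28 and 1.04 CPM (2.41 ± 0.49, adjusted p = 0.00042). It had 0 counts in naive catalytic-dead cells and rose to 0.573, 0.568 and 0.723 CPM after the transition (adjusted p = 0.00201). The pooled formative level was 4.35 times that of 3 counts over the naive group. Both calls held under every alternative run. The floxed rise (1.95 ± 0.59, adjusted p = 0.0107) had overlapping libraries and was lost without naive floxed library a (1.6, adjusted p = 0.087) or c (1.6, adjusted p = 0.0894) and without formative floxed library a (1.77, adjusted p = 0.0504). Col9a2 and Col22a1 passed in no comparison between 2 groups and ran from 2.70 to 9.87 CPM and from 0 to 1.65 CPM.

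Other genes of the matrix were read from lists chosen with earlier results of these data known. Of all tested genes, 7.88% were higher and 9.47% lower in naive knockout than in naive floxed cells, and 10% and 6.2% in the formative state. Of basement membrane partners, 2 of 10 tested genes were higher and 5 lower in naive knockout than in naive floxed cells. Tinagl1, a matricellular protein that binds integrins, stood at 25.7 against 6.81 CPM on average (1.89 ± 0.21, adjusted p = 2.02e-07), and Pxdn, the peroxidase that crosslinks collagen IV, at 3.56 against 0.891 CPM (1.78 ± 0.49, adjusted p = 0.0101). Egfl6 was at 4.20 against 18 CPM (-2.05 ± 0.31, adjusted p = 1.76e-05), and Ntn1, a laminin-related guidance cue, at 5.28 against 15.9 CPM (-1.56 ± 0.30, adjusted p = 0.000354). Among formative cells 2 of 12 were higher and 1 lower, with Pxdn at 34.8 against 17 CPM (1.02 ± 0.20, adjusted p = 0.000592). The median differences were -0.59 and 0.13, beside -0.03 and 0.05 over all tested genes.

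Of the 28 measured genes that modify and secrete collagen, 16 were tested in naive and 19 in formative knockout cells. In the naive state 0 of 16 were higher and 1 lower (against 7.88% and 9.47% of all tested genes). In the formative state 3 of 19 were higher and 0 lower (against 10% and 6.2%), and the medians were -0.29 and 0.19. The same shares of all genes stand beside the receptors and degrading genes below. Genes without library values were not tested, and some of their averages lay apart. Fkbp10, a collagen chaperone, averaged 52.1 CPM in naive knockout and 9.50 CPM in naive floxed cells, and 70.4 and 21.3 CPM in the formative state. P3h4, a partner of lysyl hydroxylation, averaged 75.3 and 17.8 CPM in the naive and 79.4 and 24.5 CPM in the formative state. Serpinh1, the procollagen chaperone HSP47, averaged 131 and 67.1 CPM in the naive and 247 and 196 CPM in the formative state. The 3 genes past the threshold in the formative state were Crtap, a prolyl 3-hydroxylase partner (1.57 ± 0.44, adjusted p = 0.0144), Bmp1, the procollagen C-proteinase (1.45 ± 0.38, adjusted p = 0.00898), and Sec24d, a coat protein of procollagen export (0.89 ± 0.19, adjusted p = 0.00146). Of receptors, 3 of 12 were higher and 0 lower in the formative state (median 0.43), and 2 of 11 higher and 3 lower in the naive state (median 0.10). Itga1, the α subunit of the collagen-binding integrin α1β1, averaged 15.4 CPM in formative knockout and 2.99 CPM in formative floxed cells (2.29 ± 0.29, adjusted p = 1.79e-06). Of matrix-degrading enzymes and their inhibitors, 7 of 14 were higher and 0 lower in formative knockout cells (median 0.70, against 10% and 6.2% of all tested genes). They included Adamts1 (1.78 ± 0.33, adjusted p = 0.0003) and the inhibitor Timp1 (0.95 ± 0.19, adjusted p = 0.00108), and in the naive state 2 of 13 were higher and 2 lower (median -0.38).

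Markers of other cells that make these proteins were read against the same shares of all genes, 7.88% higher and 9.47% lower in naive and 10% and 6.2% in formative knockout cells. Of primitive and parietal endoderm markers, 4 of 8 tested were higher and 0 lower in naive knockout than floxed cells. They were Dab2, at 24.6 against 2.32 CPM (3.30 ± 0.34, adjusted p = 1.18e-07), Afp (3.16 ± 0.42, adjusted p = 2.65e-06), Foxa2 (2.75 ± 0.47, adjusted p = 7.87e-05) and Thbd, which had 0 in floxed cells (adjusted p = 0.0175). Among formative cells 4 of 8 were higher and 0 lower, with Afp (3.43 ± 0.50, adjusted p = 1.33e-05), Thbd, Foxa2 and Srgn. Formative Foxa2 averaged 1.05 CPM in knockout, 0.117 CPM in floxed and 1.15 CPM in wild-type cells, so knockout cells were not above wild type. Floxed cells were lower than wild type (-2.08 ± 0.50, adjusted p = 0.00726). In catalytic-dead against wild-type cells 0 of 7 were higher and 0 lower in the naive state (against 5.65% and 4.38%). Dab2 had no test there, at 49.4 against 3.25 CPM on average. In the formative state 1 of 8 was higher, Dab2 at 23.6 against 13.6 CPM (0.78 ± 0.21, adjusted p = 0.0231), and 0 lower (against 4.26% and 2.96%). The defining factors Gata4 and Gata6 averaged at most 2.10 and 1.1 CPM in any group. Both maxima were in formative knockout cells, against 0.754 and 0.295 CPM in formative floxed cells. In the naive state they averaged 1.09 and 0.482 CPM in knockout and 0.298 and 0.526 CPM in floxed cells. Neither was among the genes past the threshold in these knockout comparisons. Of the 14 listed markers 9 were measured. Their summed level, of which Sparc made up most, was 311 to 785 CPM over the groups, with 785 CPM in naive floxed and 330 CPM in naive knockout cells. Their part in the collagen IV result was not tested.

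Of fibroblast markers, 1 of 5 tested was higher and 2 lower in formative knockout than floxed cells, and 0 of 6 were higher and 1 lower in the naive state. Twist1 was higher (1.43 ± 0.23, adjusted p = 5.26e-05), while Thy1, at 0.131 against 5.83 CPM (-4.17 ± 0.47, adjusted p = 2.37e-07), and Dcn, at 1.78 against 10.4 CPM (-2.42 ± 0.36, adjusted p = 1.32e-05), were lower. Formative wild-type cells averaged 2.10 CPM of Dcn, and floxed cells were above them (2.21 ± 0.31, adjusted p = 1.18e-05). Thy1 averaged 3.25 CPM in formative wild-type cells. Acta2, Vim and Tagln had no library values in that comparison and were not tested. Acta2 averaged 637 CPM in formative knockout and 18.1 CPM in formative floxed cells, Vim 378 and 54.0 CPM, and Tagln 57.8 and 34.4 CPM. The summed level of the 8 markers was 1094 CPM in formative knockout cells and 54.8 to 194 CPM in the other 7 groups. In formative catalytic-dead cells, where Col1a2 and Col5a2 were also high, 1 of 6 was higher than in wild type, Dcn at 12.1 against 2.10 CPM (2.41 ± 0.31, adjusted p = 6.74e-06), and 0 lower (against 4.26% and 2.96% of all tested genes). Acta2 averaged 64.6 CPM in formative catalytic-dead and 14.8 CPM in formative wild-type cells and Vim 70.0 and 44.4 CPM, both untested, and Tagln 9.44 and 12.7 CPM. In naive catalytic-dead cells 1 of 8 was higher, Acta2 at 40.2 against 5.46 CPM (2.83 ± 0.26, adjusted p = 2.83e-07), and 2 lower, Thy1 and Vim (against 5.65% and 4.38%). The part of these genes in the results for fibrillar and type VIII collagen was not tested. Of trophoblast markers, 3 of 5 were higher and 1 lower in naive and 1 of 6 higher and 0 lower in formative knockout cells, with summed levels of 75.2 to 210.0 CPM over the groups.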

How the data were processed

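Mouse embryonic stem cells were profiled by QuantSeq 3′ FWD tag sequencing, single-end, per the labels' protocols. Per the submitters' processing notes, the tools were cutadapt 2.5, STAR, featureCounts (Subread 1.6.4), DESeq2 1.34.0, FastQC 0.11.8 and MultiQC, with the build mm10. The strand setting was not given in the sources used here. The values the authors deposited are log2 CPM with a prior count of 2, averaged per group, with 9 decimals; this scale was found from the values.

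Since few sets of whole counts give the same 9 decimals, counts and library sizes of 23 libraries were solved in this way (total 234513119 counts over 24 libraries, leaving 6812462 counts for a library in no column). Where the shared library had no value of its own, the formative catalytic-dead average took its place in the formative knockout average. Library counts cover counting and culture error together; replicates were cultured separately per the series' design text. Averages printed for groups without library values are on the deposited log scale, back-transformed.

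Differences were fitted in limma 3.58.1 (R 4.3.3), in 1 model of 8 groups, with weights per gene and group from a lowess trend (span 0.3) and moderated variances, checked on simulated data. For simulated naive knockout against naive floxed libraries, 1 of 36 tested genes changed 1.5-fold was called (2.8%). Of those changed 2-fold 4 of 27 were called (14.8%), and of those changed 4-fold 17 of 23 (73.9%). Of the 24 calls, 2 fell on unchanged genes. A gene that did not pass is therefore not shown to be unchanged, above all for differences of 2-fold or less. Few genes were changed in the simulation, which had these 24 calls among 10054 tested genes. The measured comparison had 870 higher and 1045 lower genes among 11038. The Benjamini-Hochberg adjustment was thus stricter in the simulation, and its rates need not be those of the measured comparison. Genes needed 10 counts at the median library size (0.981 CPM) in at least 3 libraries. Floors use 3 counts over a group. Alternatives were median-ratio size factors, no filter or 30 counts, no weights, the groups of the contrast alone, a prior count of 0.5, the formative knockout column as deposited, and leaving out each library.

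Members and lists (basement membrane partners, collagen modification and secretion, receptors, degradation, and markers of pluripotent, formative, endoderm, fibroblast and trophoblast cells) were chosen with earlier results of these data known. One member is not reported here by name, though counts over the members include it. Named were the other laminin chains, all collagen IV chains, other collagens past the threshold, up to 4 genes per list, and the 5 genes most like Col4a1 among genes with a group average of at least 8 CPM; the genes named without a call, and Gata4, Gata6, Acta2, Vim, Tagln, Fkbp10, P3h4 and Serpinh1, were chosen after their values were seen.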

Additional observations from a re-analysis of the deposited data

Results flagged for a closer look

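Of the collagen and laminin genes, 4 changed between states by a different amount in 2 lines, by a test of that difference (limma, adjusted over all genes tested). Col5a2 rose by 4.30 log2 more in knockout than in floxed cells (adjusted p = 0.000693), and formative knockout values of 7.02 to 7.49 CPM lay above all other groups. Col8a1 rose by 2.75 log2 more in knockout than in floxed cells (adjusted p = 0.00248), from a naive knockout level that was already above floxed. In catalytic-dead cells the transition was -2.11 log2 against wild type for Col4a5 (adjusted p = 0.0408), which had 0 counts in naive wild-type cells, and -1.25 log2 for Col4a1 (adjusted p = 0.0473), whose naive catalytic-dead level was above wild type. The Col4a5 and Col4a1 differences were lost in most omissions of 1 library, and those of Col8a1 in 2 alternatives, as given above.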

How the results depend on the processing

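No paired analysis was possible because the deposited columns are group averages and the recovered libraries carry no replicate number. Of the values of named genes under alternatives, 1655 stayed on their side of the threshold, 147 lost the call and 14 gained one. No value past the threshold changed sign under an alternative. Values not past it did so in some comparisons, among them Lama4 in the floxed transition (-0.39 to 0.39) and Lama3 in the knockout transition (-0.98 to 0.52). Counts of members past the threshold moved by over 1.5 times as follows. With the filter at 30 counts no named gene that was still tested lost its call. The lower counts there come from genes no longer tested. For the other alternatives the cause was not tested. The floxed transition gave 8 in place of 13 with the filter at 30 counts. The naive catalytic-dead comparison gave 3 in place of 5 with the groups of the contrast alone. The naive floxed comparison gave 1 in place of 2 with the filter at 30 counts, without weights and with a prior count of 0.5, and 0 with the groups alone. The formative floxed comparison gave 0 in place of 1 without weights. The difference of knockout and floxed transitions gave 1 in place of 2 with a prior count of 0.5 and with the column as deposited. That of catalytic-dead and wild-type transitions gave 1 in place of 2 with size factors, with the filter at 30 counts and with the groups alone, and 0 with a prior count of 0.5. Leaving out 1 library gave 10 to 11, 9 to 11, 8 to 10 and 5 to 8 for the wild-type, floxed, knockout and catalytic-dead transitions, 8 to 11 and 9 to 11 for naive and formative knockout, 2 to 5 and 4 to 7 for naive and formative catalytic-dead, and 0 to 2 and 1 to 2 for naive and formative floxed cells. The differences of transitions gave 2 to 3 and 0 to 2. With 1 naive wild-type library left, it was assumed to vary like the other groups. Depth limits members under about 1 CPM, where 3 counts over a group are 0.0842 to 0.139 CPM.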

Other observations

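The matrix lists were also read across the transition, in which 19.2% of all tested genes rose and 12.4% fell in wild-type, 22% and 10.9% in floxed, 21% and 5.15% in knockout and 18.1% and 10.1% in catalytic-dead cells. Of genes that modify and secrete collagen, 10 of 20 tested rose and 3 fell in wild-type cells, 6 of 20 and 1 in floxed, 6 of 16 and 0 in knockout, and 5 of 20 and 3 in catalytic-dead cells. The lysyl oxidase-like enzymes Loxl1 and Loxl2, which crosslink collagen, rose in all 4 lines, Loxl2 by 3.06 ± 0.62 in wild-type (adjusted p = 0.000288), 3.09 ± 0.43 in floxed (1.89e-06), 4.14 ± 0.53 in knockout (7.51e-07) and 2.69 ± 0.48 in catalytic-dead cells (6.93e-05). Of matrix-degrading enzymes and inhibitors, 6 of 15, 8 of 14, 8 of 13 and 7 of 14 rose in the same order of lines, and 1, 1, 0 and 0 fell. Mmp2, a gelatinase that cleaves collagen IV, rose in each, by 2.63 to 3.10 log2. Of receptors 4 of 14, 4 of 12, 4 of 11 and 2 of 14 rose and 2, 1, 0 and 2 fell, and of basement membrane partners 3 of 11, 3 of 11, 4 of 11 and 2 of 11 rose and 5, 3, 1 and 4 fell. Fras1, an extracellular matrix protein of the embryonic epidermal basement membrane, rose by 4.71 ± 0.50 in wild-type cells (adjusted p = 2.5e-08) and by 2.68 less in catalytic-dead cells (adjusted p = 0.0242).

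The lists were read in the same way between catalytic-dead and wild-type cells. In the naive state, where 5.65% of all tested genes were higher and 4.38% lower, the numbers higher and lower were 2 and 0 of 11 basement membrane partners, 2 and 0 of 22 modifying genes, 2 and 1 of 15 receptors and 0 and 0 of 14 degrading genes. In the formative state, where the shares of all genes were 4.26% and 2.96%, the numbers higher and lower were 1 and 2 of 11 basement membrane partners, 1 and 0 of 19 modifying genes, 0 and 2 of 14 receptors and 1 and 0 of 15 degrading genes. Fkbp10, a collagen chaperone, was higher in the naive (1.79 ± 0.28, adjusted p = 0.000155) and formative state (0.68 ± 0.19, adjusted p = 0.0265).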
